A study of Drosophila melanogaster with 18 samples.

Results

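Many cytosolic ribosomal protein genes of *Drosophila* have a duplicate. Here 10 paralogs of such genes were read in total RNA of adult testes: RpL22-like, RpL24-like, RpL37b, RpL10Aa, RpL7-like, RpS5b, RpS10a, RpS19b, RpS28-like and RpS15Ab. Their bias to the germline or to a tissue was not measured here. Among them, RpL24-like and RpL7-like resemble assembly factors rather than second copies of a ribosomal protein. The paralogs were taken by name and are 10 of the 93 genes listed as cytosolic ribosomal protein genes and of the 17575 genes counted. The *modulo* mutant carried modL8 over mod07570. The control, titled wild type in part of the labels, was the heterozygote mod07570/+, so both genotypes carried mod07570 and the control kept a wild-type copy. The *modulo* product is related to vertebrate Nucleolin and, like it, sits in the nucleolus and binds RNA. Each genotype had 3 replicates of testes dissected from males aged 1 to 3 days, each sequenced in 3 lanes that were summed here.

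A ribosome holds a fixed set of proteins on its small (S) and large (L) subunits. In flies, as in plants and yeast, some of these proteins are encoded by a pair of genes, a widely used copy and a copy with more restricted use, often in ovary or testis, and exchange of one for the other changes the makeup of the ribosome. Subunits are assembled in the nucleolus, where ribosomal RNA is transcribed. For each member, the widely used gene of the same family is called its partner below, which for RpL24-like and RpL7-like means the ribosomal protein that they resemble rather than a second copy of it: RpL22, RpL24, RpL37a, RpL10Ab, RpL7, RpS5a, RpS10b, RpS19a, RpS28b and RpS15Aa.

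The summed replicates held 107435749, 98892227 and 90898270 counts in the *modulo* mutant and 90843583, 94915990 and 87119206 counts in control. Values below are normalized counts, meaning counts divided by a library size scaled by TMM, edgeR's trimmed mean of M values. The mod transcript had 195, 181 and 121 normalized counts in mutant testes, against 2060, 1959 and 2105 in control testes. Its log2 fold change of -3.62 (SE 0.18) had an adjusted p of 4.13e-05 in edgeR's quasi-likelihood fit, with Benjamini-Hochberg adjustment over the 14059 genes tested, and this fit gave all fold changes below. Of these 14059 genes, 2044 (14.5%) were called higher and 2503 (17.8%) lower in the mutant at an adjusted p under 0.05. The testis was not sorted, so fewer cells of a type and less RNA per cell cannot be told apart, and the p-values measure the spread among 3 replicates a genotype.

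Replicates carrying the same number tended to deviate together in the 2 genotypes, but the labels do not say what a number shares. This pairing was read from the same counts. A fit with the replicate number as a block is given beside a result where it changed the call. With the block, 3122 genes (22.2%) were called higher and 3287 (23.4%) lower. DESeq2 on the same counts called 2481 (17.6%) higher and 2730 (19.4%) lower.

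Of the 10 paralogs, 9 were counted at high levels and 1, RpL7-like, was not measurable. RpS15Ab was the only 1 of the 9 called higher by the test without a block, and 0 were called lower. An unadjusted p under 0.05 in that test was reached by 2 with the mutant higher and 0 with it lower. Among the 14059 genes tested, 3005 reached it with the mutant higher and 3138 with it lower. With the replicate block 5 were called higher, RpL24-like, RpL37b, RpS5b, RpS28-like and RpS15Ab, and 0 lower. DESeq2 called 1 higher, RpS15Ab, and 0 lower. Read against the shares of all genes called, 1 of 9 is near the 14.5% of the test without a block, while 5 of 9 with the block stand beside 22.2%. The fold changes were small, between -0.07 and 0.39 on the log2 scale with a median of 0.28 for the 9 genes, and the median of all 14059 genes was 0.02. The fitted change was above 0 in 8 and below 0 in 1. Among all 14059 genes it was above 0 in 7318 and below 0 in 6741. Among the 83 other cytosolic ribosomal protein genes it was above 0 in 73 and below 0 in 10, so this direction was not particular to the paralogs.

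The amount of each transcript per length was compared first, since counts of long and short genes do not stand on 1 scale. RpL10Aa was the most abundant of the paralogs, with 30447 ± 5508 normalized counts per kb of exon in mutant testes and 25708 ± 3308 in control testes (SD, n = 3 each). It stood above RpS19b, next in order, in every sample of its genotype. RpS19b, RpS28-like and RpL22-like followed, with 16154, 15404 and 12056 counts per kb in mutant testes and 14492, 12302 and 11994 in control testes. The ranges of these 3 neighbours overlapped in both genotypes. Within each control sample RpS19b stood above RpS28-like and RpL22-like, whose order differed among control samples. In mutant testes the order of the 3 differed among samples. RpL37b came next with 11908 counts per kb in the mutant, where it overlapped RpL22-like, and 9101 in control, where it did not.

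A lower tier held RpL24-like with 6676, RpS5b with 6015 and RpS10a with 5829 counts per kb in mutant testes, and 5488, 4788 and 6131 in control testes. These 3 ranges overlapped between neighbours in the order. RpS15Ab was the least abundant of the 9, with 2732 ± 230 counts per kb in the mutant and 2205 ± 112 in control (SD, n = 3 each). The smallest raw count of a tested member in a sample was 1526, where counting error alone gives an SD of 2.56%, smaller than the spread between replicates of every tested member.

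**Figure D1:**
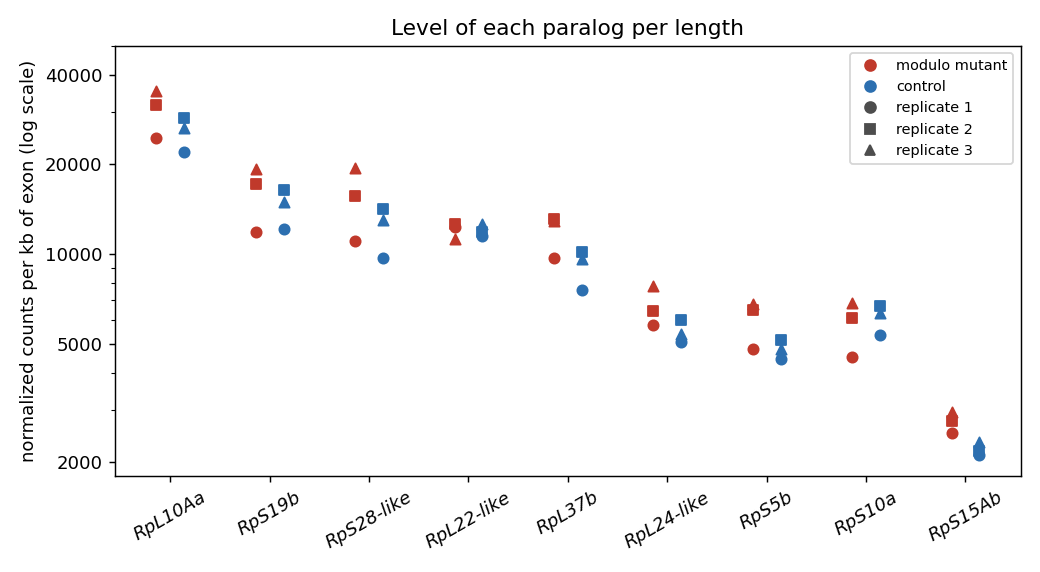
Normalized counts per kb of exon (log scale) of the 9 measured paralogs, each point a replicate, with *modulo* mutant in red on the left and control in blue on the right. RpL10Aa averaged 30447 counts per kb in the mutant and 25708 in control, and RpS15Ab, at the low end, 2732 and 2205.

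RpL22-like encodes a version of eL22 that is known from the male germline. It lies on arm 2R at 23246610 to 23247893, minus strand (all coordinates are on BDGP6/dm6), in 2 exons. It had 15199, 15547 and 13814 normalized counts in mutant testes, against 14188, 14561 and 15581 in control testes. The 2 genotypes overlapped, and the log2 fold change was 0.01 (SE 0.083, adjusted p = 0.954 in edgeR's test). Its sign turned under other scalings, as the closing section lists. RpL22-like was the only 1 of the 9 genes whose replicate 1 was not the lowest mutant sample.

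RpL24-like is similar to yeast Rlp24 and human RSL24D1, assembly factors that hold the place of eL24 on the immature large subunit until eL24 takes it. The gene lies on 3R at 11430740 to 11431582, minus strand. It had 4455, 4986 and 6040 normalized counts in mutant testes, against 3922, 4644 and 4161 in control testes. Mutant replicate 1 lay below control replicate 2, so the genotypes overlapped, although each mutant sample was above the control sample of its number. The log2 fold change was 0.28 (SE 0.13, adjusted p = 0.144), and 0.27 (SE 0.096, adjusted p = 0.0493) with the replicate block. Without the block it was 0.15 when mutant replicate 3 was left out.

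RpL37b, listed as RpL37-2 in newer annotation, encodes eL37, a small protein of the large subunit. It lies on 2R at 23100057 to 23100478, minus strand, in a single exon. It had 4102, 5520 and 5453 normalized counts in mutant testes, against 3192, 4277 and 4052 in control testes. The genotypes overlapped only through mutant replicate 1, which lay between control replicates 3 and 2. The log2 fold change of 0.39 (SE 0.16) was the largest of the 9, with an adjusted p of 0.104 without the block and 0.00297 with the replicate block.

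RpL10Aa encodes uL1, the protein of the mobile L1 stalk beside the site where spent tRNA leaves the ribosome. It lies on 3R at 15037366 to 15038149, plus strand, in a single exon. It had 19178, 24757 and 27677 normalized counts in mutant testes, against 17309, 22385 and 20771 in control testes. Mutant replicate 1 again fell within the control range. The log2 fold change was 0.24 (SE 0.16, adjusted p = 0.285, and 0.0608 with the block), so no difference in level was called.

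The remaining large-subunit paralog, RpL7-like, resembles yeast Rlp7 and human RPL7L1, which act in assembly of the large subunit. It lies on 2L at 12056326 to 12058251, plus strand. It had 1, 0 and 0 raw counts in mutant testes and 2, 2 and 0 in control testes. These counts do not measure its level: 1771 of its 1793 exon bases (98.8%) are also exons of CG34164 on the same strand, and the stated counting options leave a read pair that falls on several genes unassigned. CG34164 had 0 counts in all 6 samples. Of 357 protein-coding genes with 97% or more of their exon bases shared in this way, the median count was 0.0 and 97.5% averaged under 1 count, whereas the 12625 genes with no shared exon base had a median of 1094 counts. No fold change is given for RpL7-like.

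Among the small-subunit paralogs, RpS5b encodes uS7, a protein of the small-subunit head, and is best known from the female germline. It lies on 3R at 14900432 to 14901563, minus strand. It had 4552, 6147 and 6461 normalized counts in mutant testes, against 4212, 4900 and 4548 in control testes. Mutant replicates 2 and 3 stood above all control samples and mutant replicate 1 within them. The log2 fold change was 0.33 (SE 0.14, adjusted p = 0.125), and 0.32 (SE 0.089, adjusted p = 0.0229) with the replicate block.

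RpS28-like encodes eS28, also of the small-subunit head. It lies on 2L at 9436804 to 9437227, plus strand, and shares 39 of its 365 exon bases with CG3769. It had 4037, 5715 and 7116 normalized counts in mutant testes, against 3533, 5179 and 4759 in control testes. The spread among mutant replicates was the widest of the 9 relative to the mean, and the genotypes overlapped. The log2 fold change was 0.32 (SE 0.23, adjusted p = 0.321), and 0.30 (SE 0.098, adjusted p = 0.0366) with the replicate block. Without the block it was 0.12 when mutant replicate 3 was left out, 0.17 without control replicate 1 and 0.52 without mutant replicate 1.

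RpS15Ab encodes uS8. It lies on 2R at 10821676 to 10822399, plus strand, in a single exon. It had 1809, 1983 and 2142 normalized counts in mutant testes, against 1528, 1576 and 1686 in control testes. It was the only 1 of the 9 in which every mutant sample stood above every control sample, while 23.2% of all genes tested had no overlap with the mutant higher and 24.1% no overlap with the mutant lower. The log2 fold change was 0.31 (SE 0.093, adjusted p = 0.0426), with an adjusted p of 0.0136 with the block and 0.0158 in DESeq2. The call was near the threshold: it was lost in 11 of 19 alternative settings, with adjusted p-values between 0.0136 and 0.137 over them, among them the fits without mutant replicate 2 or 3 and without control replicate 1, 2 or 3. RpS15Ab and its partner RpS15Aa each had a fractional count, from read pairs divided among several positions, in 7 of the 18 lanes, so a small part of their reads is uncertain.

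RpS10a and RpS19b did not pass the test in any fit. RpS10a, for eS10, lies on 3R at 27652760 to 27653363, plus strand, and had 2725, 3689 and 4149 normalized counts in mutant testes, against 3239, 4046 and 3824 in control testes. It was the only 1 of the 9 with a fitted change below 0, at -0.07 (SE 0.17, adjusted p = 0.772), and its genotypes overlapped. RpS19b encodes eS19, whose human counterpart is mutated in Diamond-Blackfan anaemia. It lies on 3R at 23932729 to 23933530, minus strand, and had 7902, 11469 and 12905 normalized counts in mutant testes, against 8099, 10935 and 9922 in control testes. Its log2 fold change was 0.16 (SE 0.20, adjusted p = 0.584), and the mutant samples spanned the whole control range.

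**Figure D2:**
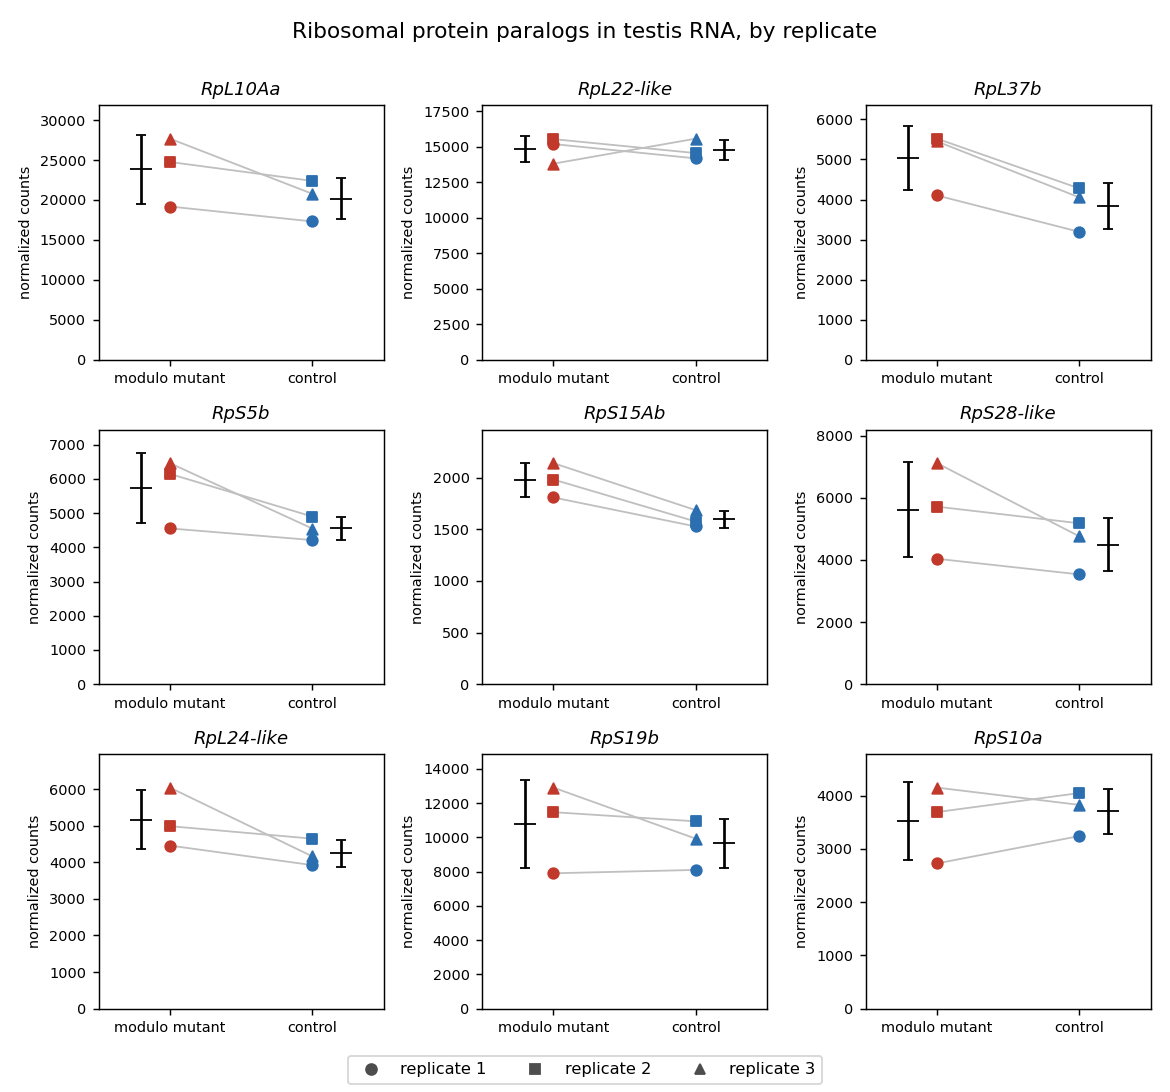
Normalized counts of the 9 measured paralogs in each replicate, *modulo* mutant left and control right, with grey lines joining samples of the same number and black bars giving the mean ± SD (n = 3). RpS15Ab alone had no overlap, with 1809 to 2142 counts in the mutant and 1528 to 1686 in control.

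The members varied together from sample to sample within a genotype. Replicate 1 was the lowest sample in 8 of the 9 measured paralogs in the mutant and in 9 of the 9 in control. The same replicate was low for ribosomal protein transcripts at large: all 93 cytosolic ribosomal protein genes made up 1.06, 1.45 and 1.53% of all counts in mutant testes and 1.12, 1.30 and 1.31% in control testes. In 6 of the 9 measured paralogs, every mutant sample was above the control sample with its number. No share over all genes was computed for this count. Without mutant replicate 1, 5 were called higher, RpL24-like (log2 fold change 0.38), RpL37b (0.52), RpL10Aa (0.38), RpS5b (0.47) and RpS15Ab (0.37). In that fit 20.1% of all genes and 33 of the 83 other ribosomal protein genes were called higher as well. The fits without mutant replicate 2 or mutant replicate 3 called 0 members, where 6.6% and 10.2% of all genes were called higher. The fits without control replicate 1, 2 or 3 also called 0, where 8.79%, 8.66% and 7.64% of all genes were called higher.

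**Figure D3:**
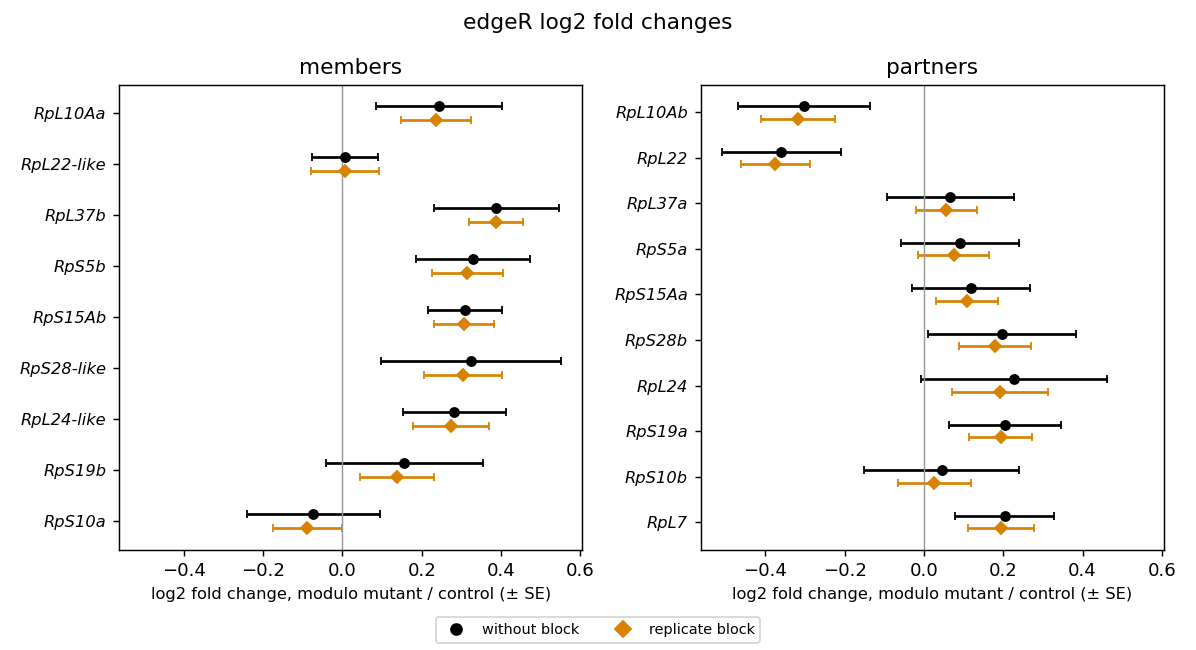
edgeR log2 fold changes, *modulo* mutant over control, with their standard errors, for the measured paralogs (left panel) and the partner genes (right panel), without a block (black circles) and with the replicate number as a block (orange diamonds). RpL37b had the largest value among the members, 0.39, and RpL22 and RpL10Ab stood below 0 among the partners, at -0.36 and -0.30.

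The partner genes were read in the same fit, to see whether both genes of a pair changed alike. None of the 10 partners was called without the block (0 higher, 0 lower), and 1, RpL22, had an unadjusted p under 0.05. With the replicate block 0 were called higher and 2 lower, RpL22 and RpL10Ab. In that fit 22.2% of all genes were called higher and 23.4% lower, so 2 of 10 is near the share of all genes. DESeq2 called 0 in either direction. The median log2 fold change of the partners was 0.11, and 8 were above 0.

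RpL22 had 1750, 2447 and 2498 normalized counts in mutant testes, against 2603, 3037 and 2948 in control testes. All its mutant samples were below all its control samples, which held for 24.1% of all genes tested. Its log2 fold change was -0.36 (SE 0.15, adjusted p = 0.111), and -0.37 (SE 0.088, adjusted p = 0.0106) with the block. Without the block and without mutant replicate 1 it was -0.21. RpL22 shares 377 of its 1100 exon bases (34.3%) with lncRNA:CR42491 on the same strand, and reads there count for neither gene. That RNA had 379, 481 and 445 raw counts in the mutant and 298, 381 and 357 in control, and its part in the RpL22 result was not tested.

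RpL10Ab, the widely used uL1 gene, had 9271, 12673 and 13998 normalized counts in mutant testes, against 12958, 16432 and 14914 in control testes. The genotypes overlapped through mutant replicate 3. Its log2 fold change was -0.30 (SE 0.17, adjusted p = 0.214), and -0.32 (SE 0.093, adjusted p = 0.0265) with the block. Without the block and without mutant replicate 1 it was -0.14. The other 8 partners lay between 0.04 (RpS10b) and 0.23 (RpL24) and did not pass with or without the block.

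The balance of the pair was then read within each sample as the log2 ratio of member to partner counts (pseudocount 0.5), a measure that does not depend on scaling between libraries. Of 9 pairs, 4 had a higher ratio in every mutant sample than in every control sample, 1 had a lower ratio in every mutant sample, and 4 overlapped. No share over all genes stands beside this count, since most genes have no such partner. Counts of single genes had no overlap in 23.2% of genes with the mutant higher and 24.1% with it lower. A further 4 duplicated pairs, described in the closing section, also did not overlap. Those pairs were chosen after values were seen, so they give no share to compare with. With 3 samples against 3, the smallest p that an exact two-sided permutation test allows is 0.1, so these differences are set against the spread between replicates.

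For RpL10Aa over RpL10Ab the log2 ratio was 1.05, 0.966 and 0.983 in mutant testes, against 0.418, 0.446 and 0.478 in control testes. The replicates of a genotype lay close together and the genotypes far apart, with a difference of 0.55 (SE 0.031, exact p = 0.1), which is 1.47 times the control ratio. Corrected for exon length, RpL10Aa made up 71.0% ± 0.62 of uL1 transcripts in mutant testes and 62.5% ± 0.49 in control testes (SD, n = 3 each). This was the largest difference among the 9 pairs, and it held in each numbered pair (0.63, 0.52 and 0.51).

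For RpL22-like over RpL22 the log2 ratio was 3.12, 2.67 and 2.47 in mutant testes, against 2.45, 2.26 and 2.40 in control testes. The mutant replicates were spread widely and the lowest of them lay just above the highest control sample. The difference was 0.38 (SE 0.20, exact p = 0.1), and within numbered pairs it was 0.67, 0.41 and 0.07. Without mutant replicate 1 the difference was 0.20. RpL22-like made up 85.6% ± 2.75 of eL22 transcripts per length in mutant testes and 82.2% ± 0.99 in control testes (SD, n = 3 each). Leaving out the exon bases that RpL22 shares, a correction chosen after the overlap was seen, the share was 79.6% ± 3.64 in mutant testes and 75.2% ± 1.26 in control testes.

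RpL37b and RpS5b also made up more of their pair in the mutant. The log2 ratio of RpL37b to RpL37a was -0.949, -1.01 and -1.04 in mutant testes, against -1.38, -1.29 and -1.31 in control testes, a difference of 0.33 (SE 0.038, exact p = 0.1). Its share of eL37 transcripts per length was 60.6% ± 0.75 in the mutant and 55.0% ± 0.81 in control (SD, n = 3 each). The log2 ratio of RpS5b to RpS5a was -1.27, -1.33 and -1.27 in mutant testes, against -1.51, -1.49 and -1.58 in control testes, a difference of 0.24 (SE 0.033, exact p = 0.1). Its share of uS7 transcripts per length was 37.4% ± 0.57 in the mutant and 33.6% ± 0.70 in control (SD, n = 3 each). In both pairs the difference was several times its standard error.

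RpS10a differed the other way. Its log2 ratio to RpS10b was -1.70, -1.76 and -1.80 in mutant testes, against -1.58, -1.68 and -1.67 in control testes. Every mutant sample lay below every control sample, with a difference of -0.11 (SE 0.042, exact p = 0.1). Its share of eS10 transcripts per length was 43.3% ± 0.85 in mutant testes and 45.3% ± 0.91 in control testes (SD, n = 3 each).

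In the other 4 pairs the genotypes overlapped. The differences were 0.20 for RpS15Ab over RpS15Aa (SE 0.11, exact p = 0.2), 0.13 for RpS28-like over RpS28b (SE 0.094, exact p = 0.4), 0.08 for RpL24-like over RpL24 (SE 0.17, exact p = 0.7) and -0.06 for RpS19b over RpS19a (SE 0.093, exact p = 0.6). The RpS15Ab ratio was higher in the mutant in each numbered pair (0.28, 0.17 and 0.15). For RpS28-like, RpL24-like and RpS19b the sign differed among numbered pairs. RpL7-like over RpL7 was not computed.

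**Figure D4:**
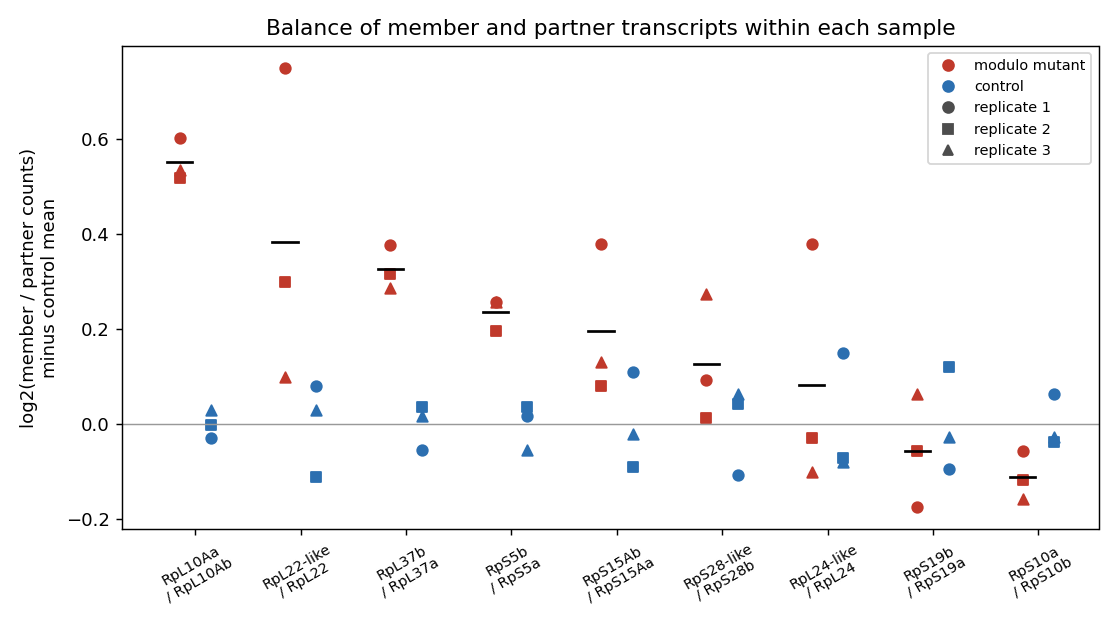
Within-sample log2 ratio of member to partner counts for 9 pairs, drawn as the distance from the control mean of that pair, with *modulo* mutant in red on the left, control in blue on the right and black bars at the mutant mean. The mutant mean stood 0.55 above control for RpL10Aa over RpL10Ab and -0.11 from it for RpS10a over RpS10b.

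Each paralog was also taken as a share of all cytosolic ribosomal protein counts. RpL37b held 0.401, 0.402 and 0.362% in mutant testes, against 0.314, 0.341 and 0.339% in control testes. RpL10Aa held 1.88, 1.80 and 1.84% in mutant testes, against 1.70, 1.79 and 1.74% in control testes. RpS5b held 0.445, 0.448 and 0.429% in mutant testes, against 0.414, 0.391 and 0.380% in control testes. RpS10a held 0.267, 0.269 and 0.275% in mutant testes, against 0.319, 0.323 and 0.320% in control testes. These 4 were the members without overlap, 3 with the mutant higher and 1 with it lower. RpL22-like, whose ratio to RpL22 was higher in the mutant, overlapped in this measure, with 1.49, 1.13 and 0.917% in mutant testes, against 1.40, 1.16 and 1.30% in control testes. Among the other 83 ribosomal protein genes, 8 (9.64%) had no overlap with the mutant higher and 14 (16.9%) with it lower. The 10 members together held 6.26, 5.81 and 5.69% in mutant testes and 5.82, 5.79 and 5.79% in control testes, so their summed share overlapped.

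The paralogs and their partners differed in where and how their genes are built. None of the members (0 of 10) lies on the X chromosome, whereas 7 of the 10 partners do, against 15.6% of all protein-coding genes. By distinct annotated exons over all transcripts, a single exon makes up 4 members, RpL37b, RpL10Aa, RpS10a and RpS15Ab, and 0 partners. The same holds for 13.1% of protein-coding genes. An intronless gene whose transcripts differ in their ends counts as several exons in this measure. Of the members, 5 lie on 3R, 3 on 2R and 2 on 2L. RpS5b and RpL10Aa are 135802 bases apart, and RpL37b and RpL22-like 146131 bases apart. The mod gene is also on 3R, and the nearest member is 4.4 Mb from it.

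The rest of the ribosomal protein genes gave the setting for these changes. Of 83 other cytosolic ribosomal protein genes, partners included, 2 were called higher without the block (RpLP0 and RpLP0-like) and 0 lower. An unadjusted p under 0.05 was reached by 3 with the mutant higher and 3 with it lower. With the block 9 were called higher and 5 lower, against 22.2% and 23.4% of all genes tested. DESeq2 called 2 higher and 2 lower. The median log2 fold change of the 83 genes was 0.17, and 73 were above 0. RpLP0, which encodes the base of the acidic stalk of the large subunit, had 26017, 31890 and 33150 normalized counts in mutant testes, against 17570, 19131 and 19140 in control testes. Its log2 fold change of 0.71 (SE 0.11, adjusted p = 0.00341) exceeded that of every member and was called in all 19 alternative settings. The median of the members, 0.28, lay between this list's 0.17 and the 0.33 of the assembly genes below, and the lists were not tested against each other.

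Genes for ribosome assembly and nucleolar proteins were read beside the members because RpL24-like and RpL7-like resemble assembly factors. This list was chosen with earlier results of these data known, so the shares of all genes beside its counts are for description only. Of 20 such genes, 13 were called higher and 0 lower, against 14.5% and 17.8% of all genes tested. With the block 17 were called higher and 0 lower, against 22.2% and 23.4%. No overlap with the mutant higher was found in 18, against 23.2% of all genes tested. RpLP0-like is among the 20 and also among the 83 other ribosomal protein genes. The summed level of the 20 genes ranged from 43261 to 44639 normalized counts in mutant testes and from 34406 to 35968 in control testes. The largest changes were in pit, a nucleolar RNA helicase gene (0.60, SE 0.097, adjusted p = 0.00411), and Nmd3, an export adaptor of the large subunit (0.56, SE 0.087, adjusted p = 0.00323). The eIF6 gene, whose product keeps the immature large subunit from joining the small subunit, had a log2 fold change of 0.33 (SE 0.088, adjusted p = 0.0285). Mys45A was the only 1 below 0 (-0.16, adjusted p = 0.389). The count of 13 was 12 without mutant replicate 1, 2 without mutant replicate 2 and 7 without mutant replicate 3. In those fits 20.1%, 6.6% and 10.2% of all genes were called higher. The count was 4, 6 and 4 without control replicates 1, 2 and 3, beside 8.79%, 8.66% and 7.64% of all genes.

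**Figure D5:**
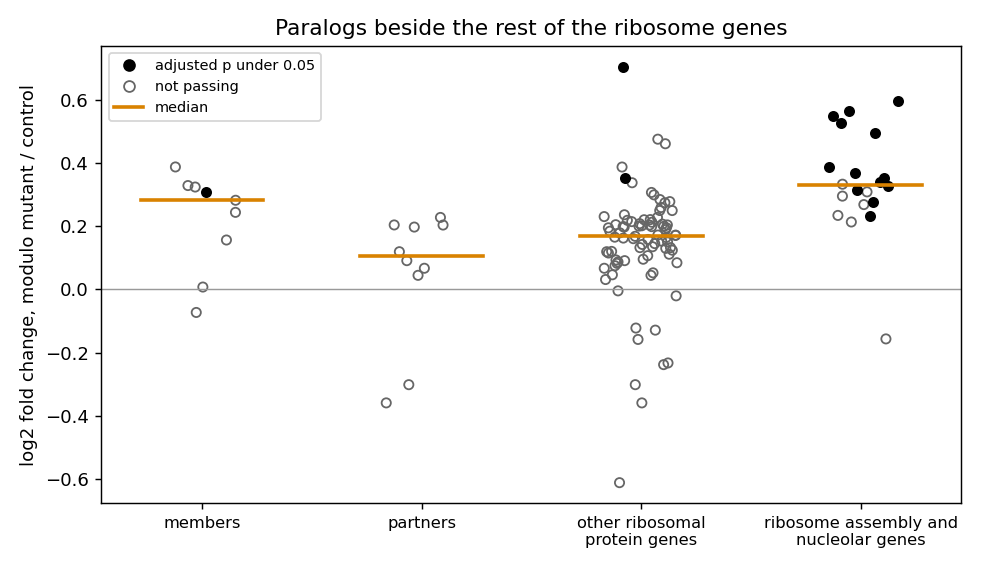
edgeR log2 fold changes, *modulo* mutant over control, of the 9 measured paralogs, the 10 partners, the 83 other cytosolic ribosomal protein genes (partners included) and 20 ribosome assembly and nucleolar genes, with filled points for an adjusted p under 0.05 and orange lines at the medians. The medians were 0.28, 0.11, 0.17 and 0.33. RpLP0-like is drawn both among the other ribosomal protein genes and among the assembly genes.

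Markers of the cell types in the testis were read beside these changes. Of all genes tested, 14.5% were called higher and 17.8% lower without the block, and 22.2% and 23.4% with it. Of 9 markers of stem cells and spermatogonia 1 was called higher and 0 lower, with a summed level of 30717 to 41551 normalized counts in mutant testes and 31029 to 35316 in control testes. Of 12 spermatocyte markers 2 were higher and 1 lower, with 65528 to 79123 counts in the mutant and 67477 to 73490 in control. Of 14 spermatid markers 2 were higher and 1 lower, with 1365230 to 1523874 counts in the mutant and 1150277 to 1341036 in control. Of 8 hub and cyst cell markers 1 was higher and 2 lower, with 24115 to 37477 counts in the mutant and 30040 to 39513 in control. Of the 8 muscle markers 0 were called in either direction without the block, 1 was higher with the block and 1 was lower in DESeq2. With the block the calls were 4 higher for spermatogonia, 3 higher and 1 lower for spermatocytes, and 1 higher and 4 lower for hub and cyst cells. Of 10 tested accessory gland markers 1 was higher, with a summed level of 9820 to 23310 counts in the mutant and 4160 to 35942 in control, and of 4 fat body markers 1 was higher. The spermatid list includes the protamine-like genes Mst77F, ProtA and ProtB, and the authors report raised Mst77F total RNA in the mutant. The summed spermatid level did not overlap between genotypes, and its part in the results for the paralogs was not tested.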

How the data were processed

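Total RNA depleted of ribosomal RNA was sequenced from 3 *modulo* mutant and 3 control replicates of adult testes, in 18 lane libraries that were mapped to genotype, replicate and lane by their labels. The authors aligned read pairs with STAR 2.7.1a to BDGP6/dm6 and counted them by strand on FlyBase genes with featureCounts, splitting a multiply mapped pair into fractions, so the deposited values are estimated counts per gene, not normalized, and 657 to 773 genes per lane were not whole. A pair that overlaps several genes on its strand is not assigned under the stated options, so genes that share nearly all exon bases, such as RpL7-like, are close to 0. A table of all lanes with the same values was not used.

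Lanes were summed and rounded. A gene was tested if 3 or more of the 6 samples had 10 counts or more (14059 genes), with edgeR 4.0.16 in R 4.3.3 (TMM, quasi-likelihood, Benjamini-Hochberg, adjusted p under 0.05). In data simulated for this comparison over 14059 genes, 91% of 2-fold and 27% of 1.5-fold changes were recovered, with 7.09% false among calls. The simulation changed 200 genes and held no effect of the replicate number. It held no change as small as those of the members, so their recovery is not known from it. Alternatives were DESeq2 1.42.0 (also with ashr 2.2.63), other scalings and filters, abundant RNAs left out, single lanes, unrounded counts, a block for the replicate number, and omission of each replicate in turn.

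Both genotypes have replicates 1, 2 and 3 in the labels. Deviations from the genotype means correlated at 0.556, 0.581 and 0.167 for equal numbers and between -0.583 and 0.107 for others. All equal-number values exceeded 0.1, so replicates with the same number were treated as pairs. The highest of the others, 0.107, exceeded 0.1 as well, so this bound alone does not separate pairs from other combinations. The labels do not say what a number shares, and the blocked fits rest on this reading.

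The members, partners and lists were chosen with earlier results of these data known. Named genes were all members and partners, duplicated ribosomal protein genes outside them, up to 2 called genes with the largest rise and fall in each of the other lists, and mod. The eIF6 gene, Mys45A and RpS28a are named outside this rule, after their values were seen. Positions and exon lengths came from annotation BDGP6.54, in which RpL37b and RpL37a are RpL37-2 and RpL37-1.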

Additional observations from a re-analysis of the deposited data

How the results depend on the processing

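Over 361 fold changes of members and partners recomputed under alternatives, 320 kept direction and side of the threshold, 13 became called, 11 lost a call (all for RpS15Ab) and 17 turned sign, none of the last passing the test. The members called higher, 1, were 0 under upper-quartile scaling, library totals, a filter of 1 CPM, or lane 1, 2 or 3 alone, 5 with the replicate block, and 0 to 5 with a replicate left out. The other ribosomal protein genes called higher, 2, were 1 under upper-quartile scaling, library totals, lane 1 or lane 3, 9 with the replicate block, and 1 to 33 with a replicate left out, 33 being without mutant replicate 1. Those called lower, 0, were 1 under library totals, 2 in DESeq2 with or without ashr, and 5 with the block. The assembly genes called higher, 13, were 8 under library totals, 7 in lane 3 alone and 2 to 12 with a replicate left out. The cause of these shifts was not tested. RpL22-like turned to -0.0157 under upper-quartile scaling, -0.047 under library totals, -0.0099 with the CPM filter, -0.0052 in lane 1 and -0.0069 in lane 2, and RpS10b to -0.0084 under library totals. With a replicate left out, the ranges crossed 0 for RpL22-like (-0.0272 to 0.0565), RpS10a (-0.2069 to 0.0839), RpL24 (-0.0013 to 0.4409), RpL37a (-0.0326 to 0.2161) and RpS10b (-0.1133 to 0.2221), and for the log2 ratios RpL24-like over RpL24 (-0.0662 to 0.1735) and RpS19b over RpS19a (-0.1155 to 0.0043). With shared exon bases left out, a setting chosen after seeing the data, RpS28-like made up 50.0% of its pair per length in the mutant and 47.8% in control, instead of 47.2% in the mutant and 45.0% in control. The block changed no other call among members and partners than those given with the results.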

Other observations

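Several duplicated ribosomal protein genes outside the 10 members differed in the same measure, the within-sample log2 ratio of their copies. These pairs were chosen after values were seen, and each of the 4 had no overlap between genotypes and the smallest p the exact permutation test can give with 3 samples against 3 (exact p = 0.1). The ratio of RpS28a, an intronless copy for eS28, to RpS28b was -4.47, -4.43 and -4.32 in mutant testes, against -3.78, -3.59 and -3.44 in control testes, a difference of -0.80 (SE 0.11). RpS28a itself had 557, 855 and 961 normalized counts in the mutant and 901, 1355 and 1368 in control, with a log2 fold change of -0.61 (SE 0.24, adjusted p = 0.0953 in edgeR's test, and 0.000891 with the replicate block). RpS28-like and RpS28b, both listed under eS28, had fitted changes of 0.32 (SE 0.23) and 0.20 (SE 0.19). Neither was called without the block, and their ratio overlapped between genotypes.

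RpLP0-like, related to yeast Mrt4, an assembly factor that holds the place of the stalk base protein, had 673, 789 and 719 normalized counts in mutant testes, against 537, 609 and 562 in control testes (log2 fold change 0.35, SE 0.098, adjusted p = 0.0321 in edgeR's test). That call was lost in 9 of 19 alternative settings, with adjusted p-values up to 0.137. Its ratio to RpLP0 was lower in the mutant by a difference of -0.35 (SE 0.083), with RpLP0 at 0.71. RpL34a was higher relative to RpL34b in every mutant sample than in every control sample, with ratios of -1.31, -1.49 and -1.52 in the mutant and -1.67, -1.75 and -1.71 in control, a difference of 0.28 (SE 0.069). RpS14b over RpS14a, neighbouring genes with a fractional count in 15 of 18 lanes, differed by -0.11 (SE 0.039).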
